A study of Mus musculus with 15 samples.

Results

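The genes described here are those of MHC class I antigen presentation and of the interferon response, 34 genes chosen by name from the 43629 genes of a table of single-cell expression in hippocampal interneurons. They were grouped by role into 4 MHC class I chains, 3 peptide loading genes, 3 inducible proteasome subunits, 4 interferon receptor chains, 4 transcription factors, 2 sensors of viral RNA and 14 interferon-induced effectors. The cytosol of 15 tdTomato-labelled interneurons was aspirated through a patch pipette in the CA1 region of organotypic hippocampal slice cultures, and each cell became 1 cDNA library. Cultures were made from C57BL6 mice of 6 to 7 postnatal days and of either sex. A Cre-dependent tdTomato reporter line was crossed with a Cre line driven by Slc17a8 (VGT3+), Pvalb (Pv+) or Sst (Sst+), and 5 cells of each type were sequenced. The Pv and Sst Cre lines are described as having some leaky Cre expression in other cell types. No type was treated, and all 3 carried a Cre allele and the reporter. Each type came from its own Cre line and no animal or culture is named for a cell, so type, mouse line, animal and culture cannot be told apart. Each type was therefore handled as 1 sample: SDs give the spread between 5 cells, no test was computed, and differences between types are descriptions of these libraries.

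MHC class I molecules consist of a heavy chain, the small chain beta-2-microglobulin and a peptide cut from cytosolic protein by the proteasome. Peptides enter the endoplasmic reticulum through the transporter made of Tap1 and Tap2, and tapasin (Tapbp) helps to load them. Interferons bind receptors on the cell surface and act through STAT and IRF transcription factors, which bind short promoter motifs called the interferon-stimulated response element (ISRE) and the gamma-activated site (GAS). Neurons express MHC class I at low levels, and in the brain it has been studied in the remodelling of synapses, while microglia are rich in these genes.

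The type labels were checked first. Slc17a8, which encodes the vesicular glutamate transporter VGLUT3, lay between 106 and 354 transcripts per 1000000 (TPM) in its own type and did not exceed 0.0516 TPM elsewhere. Pvalb lay between 3136 and 7383 TPM in Pv+ cells and at most at 55.1 TPM elsewhere. Sst lay between 1804 and 4539 TPM in Sst+ cells and at most at 0.458 TPM elsewhere. From the smallest steps of the TPM values, between 13.2 M and 32.2 M reads on genes (M, 1000000) were estimated per library, and between 5463 and 11156 genes were above 0. VGT3+ cells 1 to 3 belong to the library set G556 and the other 12 cells to the set G709, so G556 holds cells of 1 type only. Microglia markers were present in most libraries: the sum of 16 markers ran from 162 to 25643 TPM among VGT3+, from 4237 to 17834 TPM among Pv+ and from 0.545 to 5832 TPM among Sst+ cells.

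Of the 34 members, 32 were above 0 in at least 1 cell, 23 averaged 1 TPM or more over the 15 cells and 13 averaged 10 TPM or more. Between 9 and 22 members were above 0 in a cell. The median was 11 in VGT3+ cells, 15 in Pv+ cells and 10 in Sst+ cells, and the ranges of the 3 types overlapped. Counts of all genes above 0 followed the same order, with a median of 9934 for Pv+, 9092 for VGT3+ and 7849 for Sst+. Whether the member counts differed beyond these counts was not tested. Pv+ cell 3, with 22 members, was also the cell with the most genes above 0. B2m was the most abundant member and made up a median of 77.7% of the summed TPM of all members in a cell.

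**Figure D1:**
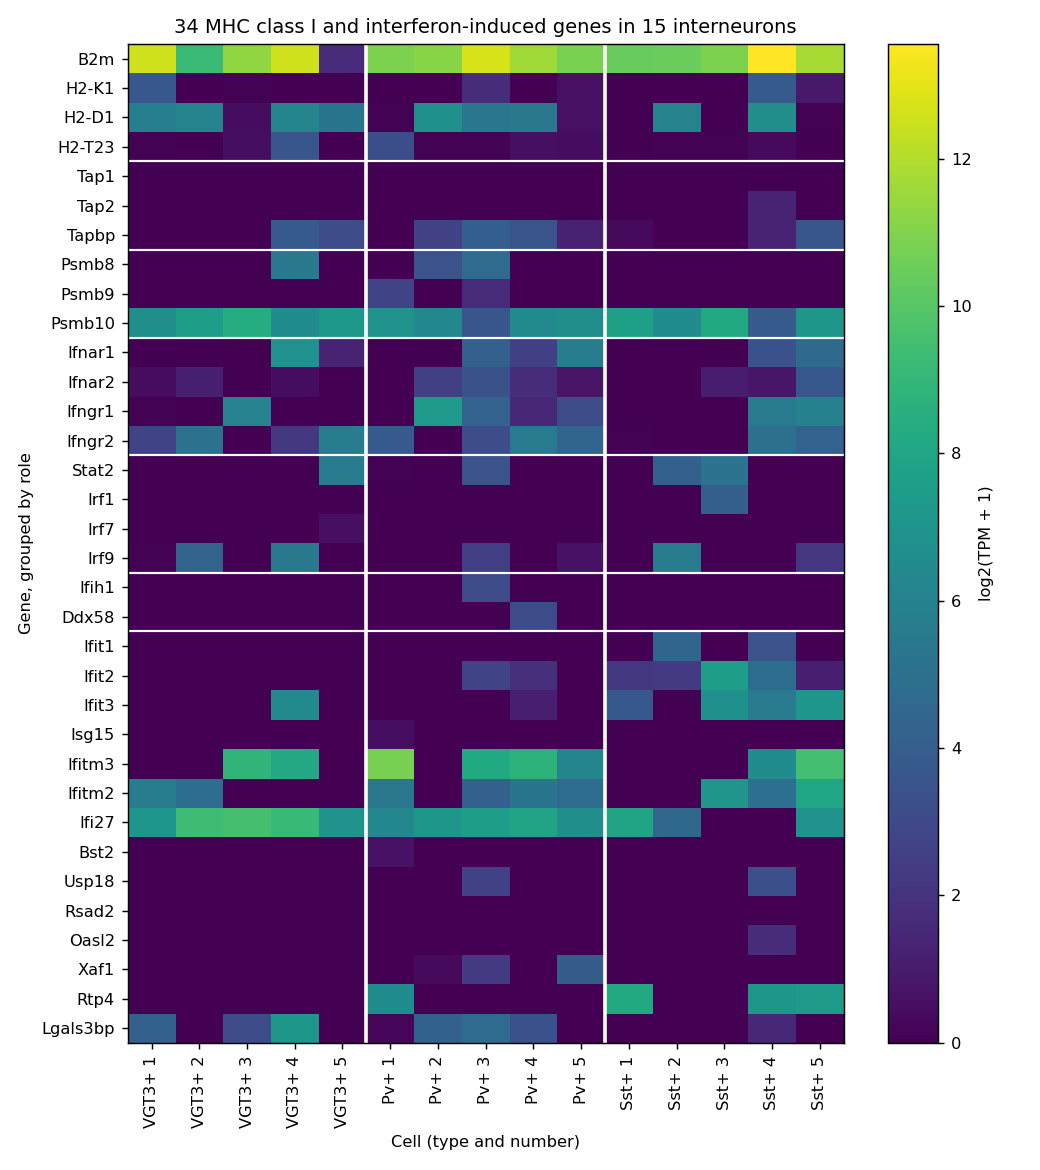
Level of each of the 34 genes, as log2(TPM + 1) by colour, in each of the 15 cells (columns, by type and number). B2m and Psmb10 are above 0 in all 15 cells, Ifi27 in 13, and most other members are at 0 in most cells.

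Promoter sequence is shown first for the members in which an interferon motif was found, because it gives what these genes share in sequence and how little their levels share. Among the 250 bases before the RefSeq transcription start (GRCm38.p6), an ISRE-like motif with the letters GAAANNGAAA, searched on both strands (TTTCNNTTTC on the reverse), stood in 9 of the 30 members with a matched promoter. It stood in 3.46% of all 27025 genes with a promoter. The 9 genes were B2m, Bst2, H2-T23, Ifit1, Ifit3, Ifitm2, Isg15, Rsad2 and Stat2, and since members were chosen as interferon-induced genes this share is a description of the choice. Ifi27, Rtp4, Tap2 and Usp18 had no matched promoter. The stretches that follow are read in the direction of the gene, with the 10 letters of the motif in capitals.
B2m, chr2:122147533-122147572, plus strand: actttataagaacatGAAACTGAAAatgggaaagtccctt
Ifit3, chr19:34583392-34583431, plus strand: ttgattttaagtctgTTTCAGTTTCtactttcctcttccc
Ifit1, chr19:34640789-34640828, plus strand: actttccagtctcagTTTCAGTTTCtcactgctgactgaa
Isg15, chr4:156200866-156200905, minus strand: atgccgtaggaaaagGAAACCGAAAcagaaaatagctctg
Rsad2, chr12:26456548-26456587, minus strand: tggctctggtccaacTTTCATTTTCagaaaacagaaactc
The motif of B2m began 139 bases before the start and that of Isg15 shown here 72 bases before it. Genes with the same letters were found at opposite ends of the range of levels: B2m was above 0 in 15 cells, Ifit3 in 6, Ifit1 in 2, Isg15 in 1 and Rsad2 in 0. A GAS-like motif, TTCNNNGAA, which reads the same on both strands and can overlap an ISRE-like match, stood in 5 of the 30 matched members (Bst2, Ifit2, Ifnar2, Irf1 and Psmb8) and in 8.13% of all genes with a promoter. The sites of Irf1 and Ifit2 are given because Irf1 is a classical target of interferon-gamma and Ifit2 is the member whose types separate most clearly in the levels.
Irf1, chr11:53769909-53769947, plus strand: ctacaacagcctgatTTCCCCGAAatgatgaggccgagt
Ifit2, chr19:34550444-34550476, plus strand: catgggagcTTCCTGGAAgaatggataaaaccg
Irf1 was above 0 in 1 cell and Ifit2 in 8.

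The MHC class I chains were dominated by the light chain. B2m (ENSMUSG00000060802, chromosome 2, 122147686 to 122153083 in GRCm38), which encodes beta-2-microglobulin, stood at 6212, 609, 2525, 6105 and 2.15 TPM in VGT3+ cells 1 to 5. It stood at 1920, 2299, 6774, 3204 and 1822 TPM in the Pv+ cells and at 1365, 1389, 1898, 12064 and 3548 TPM in the Sst+ cells. The types overlapped fully, and VGT3+ cell 5 stood far below the other 14 cells. Its value rested on an estimated 11 reads, against 51216 in VGT3+ cell 1. Mean TPM was 3091 ± 2951 for VGT3+, 3204 ± 2069 for Pv+ and 4053 ± 4566 for Sst+ cells (SD, n = 5). On the log2(TPM + 1) scale the difference was -1.98 for VGT3+ minus Pv+ and -1.94 for VGT3+ minus Sst+ cells, and without VGT3+ cell 5 it was -0.02 and 0.01.

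The heavy chains were low. H2-D1 (ENSMUSG00000073411, chromosome 17, 35262730 to 35267499), a classical heavy chain, stood at 55.8, 64.7, 0.387, 71.2 and 37.7 TPM in the VGT3+ cells. It stood at 0.0599, 109, 39.6, 42.3 and 0.506 TPM in the Pv+ cells and at 0, 64.8, 0, 101 and 0.0472 TPM in the Sst+ cells. Cells thus fell near 0 or between 37.7 and 109 TPM, and 4 VGT3+, 3 Pv+ and 2 Sst+ cells were in the upper range. Its VGT3+ cells lay 2.20 above the Sst+ cells on the log2 scale, with SDs of 2.42 and 3.48 between cells. H2-T23, which encodes the non-classical heavy chain Qa-1, was above 0 in all 5 Pv+ cells, at 8.61, 0.0475, 0.0470, 0.463 and 0.361 TPM. In the VGT3+ cells it stood at 0.0722, 0, 0.403, 11.6 and 0 TPM, and in the Sst+ cells at 0, 0.0386, 0.0595, 0.247 and 0 TPM. Only VGT3+ cell 4 and Pv+ cell 1 exceeded 1 TPM, and the values near 0.05 TPM corresponded to 1 estimated read. H2-K1, the other classical heavy chain, was above 0 in 6 cells and reached 13.1 TPM in Sst+ cell 4.

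The sum of the 3 heavy chains ran from 0 to 115 TPM per cell, while B2m was at least 609 TPM in all cells but 1. In VGT3+ cell 5 the order was turned, with 2.15 TPM of B2m beside 37.7 TPM of heavy chain. In Sst+ cell 1 all 3 heavy chains were listed at 0 beside 1365 TPM of B2m. The sum of the 4 chain genes averaged 3141 ± 2967 TPM over VGT3+, 3245 ± 2074 over Pv+ and 4089 ± 4607 over Sst+ cells (SD, n = 5), and without Sst+ cell 4 the last of these fell to 2066 TPM. H2-K1, H2-D1 and the H2-Q genes are near-identical in places. Reads that fit several of them may have gone uncounted, so both the split among them and the heavy chain sum are uncertain, and the sum may be too low.

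B2m moved with the microglia markers. Across the 15 cells, Spearman's rho between B2m and the summed TPM of 16 microglia markers was 0.81 and Pearson's r on the log2 scale was 0.47. Without Sst+ cell 1 and VGT3+ cell 5, whose marker sums lay farthest from the median on the log2 scale, rho was 0.74 and r 0.68 (n = 13), and in the library set G709 alone rho was 0.82 and r 0.44 (n = 12). The median rho over 8140 genes above 0 in at least 8 cells was -0.08. The cells share a library kit, the cells of a type share a mouse line, and types of 5 cells are too few for a value within a type. The most abundant markers were Tyrobp, an adaptor of microglial receptors, with 0.306 to 13826 TPM, Ctss, a lysosomal protease, with 0 to 5694 TPM, and C1qb, a complement chain, with 0 to 5728 TPM. Sst+ cell 1 stood apart: 3 of its 16 markers were above 0, none was above 1 TPM, C1qb was listed at 0, and B2m was still at 1365 TPM. VGT3+ cell 5, lowest in B2m, had a marker sum of 162 TPM. Of 8 endothelial markers, 5 were listed at 0 in all 15 cells, among them Cldn5 and Kdr, and B2m had a rho of -0.25 with their sum.

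**Figure D2:**
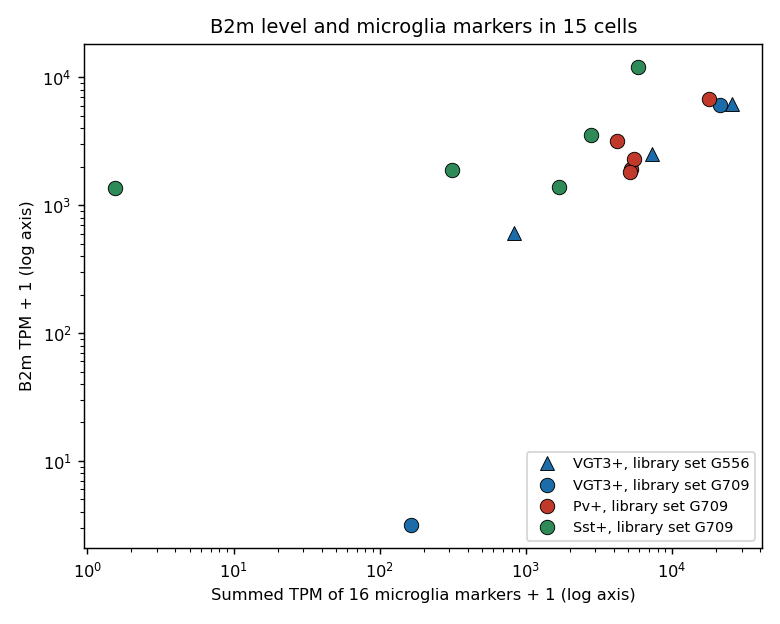
B2m TPM + 1 against the summed TPM + 1 of 16 microglia markers in 15 cells, on log axes, with colour for type and shape for library set. Cells high in the markers are high in B2m (rho 0.81), while Sst+ cell 1 has 1365 TPM of B2m at a marker sum of 0.545 TPM.

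Other members were related to these markers to different degrees. Lgals3bp, a secreted galectin-binding glycoprotein, had a rho of 0.85 with the marker sum and H2-T23 one of 0.63. H2-D1 had 0.46 and Psmb10 -0.52, which in the set G709 alone were 0.64 and -0.81. The median over the 15 members above 0 in at least 8 cells was 0.21. Ifi27 had a rho of 0.55 with the sum of 8 astrocyte markers (r 0.44, n = 15), of 0.40 without VGT3+ cell 3 and Sst+ cell 1 (r 0.31, n = 13) and of 0.65 in the set G709 alone (r 0.44, n = 12), beside a median of -0.07 over 8149 genes. Aldoc led the astrocyte sum, with 111 to 3021 TPM, and was above 0 in all 15 cells. It gave 678 of the 685 TPM in VGT3+ cell 5 and 622 of the 1915 TPM in Sst+ cell 1. The sum thus rested largely on 1 gene in most cells, and the relation of Ifi27 to the other astrocyte markers was not computed. The part of transcripts of microglia or astrocytes in the levels of these members was not tested.

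Peptide loading genes were sparse. Tap1 was listed at 0 in all 15 cells, and Tap2 was above 0 in Sst+ cell 4 only, at 1.51 TPM. Tapbp (tapasin) was above 0 in 10 cells, and its highest values were 13.5, 15.4 and 11.3 TPM among VGT3+, Pv+ and Sst+ cells. For a gene as long as Tap1, 3 reads in the deepest and shallowest libraries correspond to 0.0445 and 0.0945 TPM. These values reflect sequencing depth only and do not cover transcripts that were not captured or reads left uncounted. Exons of Tap1 and Psmb9 overlap, and Tap2, Tapbp and Psmb8 have antisense neighbours. The library kit keeps no strand, so reads in such overlaps cannot be told apart.

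The inducible proteasome subunits divided. Psmb10 (ENSMUSG00000031897, chromosome 8, 105935735 to 105938444), the inducible counterpart of Psmb7, was above 0 in all 15 cells. It stood at 107, 185, 334, 94.7 and 152 TPM in the VGT3+ cells, at 124, 80.7, 11.2, 84.3 and 104 TPM in the Pv+ cells and at 216, 97.1, 296, 14.1 and 145 TPM in the Sst+ cells. Pv+ cell 3 and Sst+ cell 4 were the lowest, and these were the highest 2 cells in B2m. Means were 174 ± 96.0, 80.8 ± 42.6 and 154 ± 108 TPM in VGT3+, Pv+ and Sst+ cells (SD, n = 5). The VGT3+ cells lay 1.29 above the Pv+ cells on the log2 scale, and 0.69 without Pv+ cell 3.

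Psmb8 and Psmb9, the inducible counterparts of Psmb5 and Psmb6, were above 0 in 3 and 2 cells. Psmb8 stood at 41.9 TPM in VGT3+ cell 4 and at 10.3 and 25.6 TPM in Pv+ cells 2 and 3, and Psmb9 at 5.91 and 2.19 TPM in Pv+ cells 1 and 3. Both were listed at 0 in all Sst+ cells. TPM values are scaled to gene length, and subunits were set beside each other on that scale. Exons joined over all transcripts of a gene span 3381 bases for Psmb8, 3660 for Psmb9 and 1705 for Psmb10. Where a cell uses shorter transcripts than the length applied, TPM comes out too low, so small differences within a pair are uncertain. Psmb10 exceeded Psmb7 in 12 of 15 cells, 4 of each type, and was a median of 63.9% of the pair. Psmb8 exceeded Psmb5 in 1 cell, and Psmb9 exceeded Psmb6 in 0 of 15 cells, where Psmb6 had a median of 1003 TPM.

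**Figure D3:**
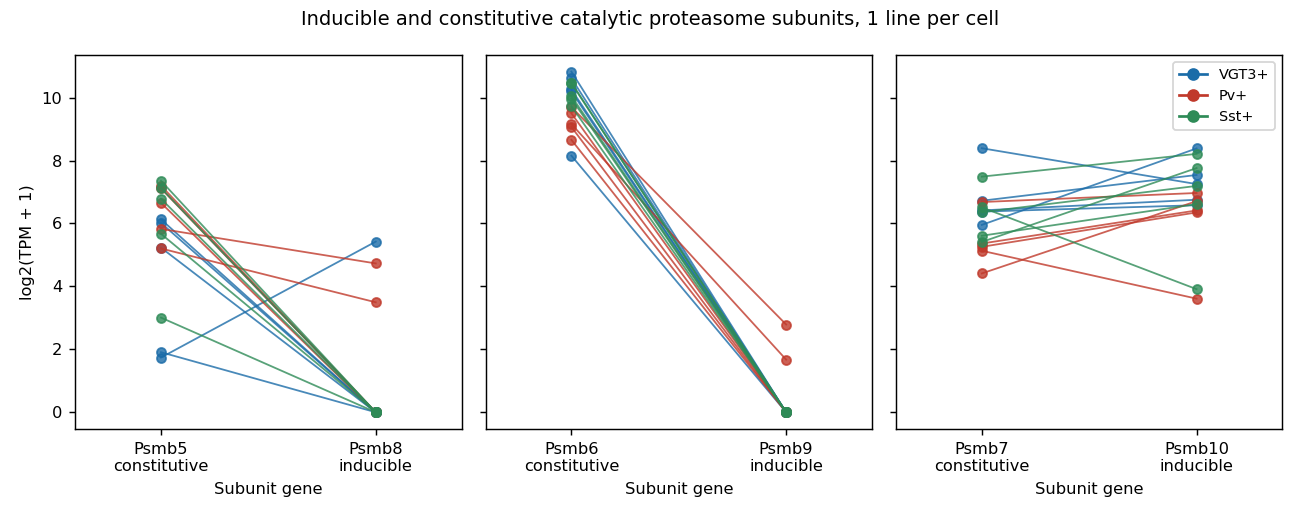
Levels, as log2(TPM + 1), of each constitutive catalytic proteasome subunit gene and its inducible counterpart, with 1 line per cell coloured by type. Lines fall to or near 0 for Psmb8 and Psmb9 in most cells, while Psmb10 lies above Psmb7 in 12 of 15 cells.

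All 4 interferon receptor chains were measured in part of the cells. Ifnar1, a chain of the receptor for type I interferons, stood at 0, 0, 0, 115 and 1.54 TPM in the VGT3+ cells, at 0, 0, 16.8, 4.90 and 50.3 TPM in the Pv+ cells and at 0, 0.0190, 0, 9.60 and 24.3 TPM in the Sst+ cells. Its partner Ifnar2 was above 0 in 10 cells and reached 12.4 TPM in Sst+ cell 5. Both chains were above 1 TPM together in Pv+ cells 3 and 4 and Sst+ cell 5.

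Ifngr1, the ligand-binding chain of the interferon-gamma receptor, stood at 0.0733, 0, 64.0, 0 and 0 TPM in the VGT3+ cells, at 0, 154, 18.0, 1.80 and 7.51 TPM in the Pv+ cells and at 0, 0, 0, 49.6 and 60.2 TPM in the Sst+ cells. Ifngr2, the second chain, stood at 5.95, 32.8, 0, 3.64 and 51.1 TPM in the VGT3+ cells, at 13.8, 0, 8.07, 46.8 and 20.4 TPM in the Pv+ cells and at 0.0521, 0, 0, 31.7 and 18.3 TPM in the Sst+ cells. VGT3+ cell 3 and Pv+ cell 2 had Ifngr1 with Ifngr2 listed at 0, and only Pv+ cells 3 to 5 and Sst+ cells 4 and 5 had both chains above 1 TPM. In Sst+ cells 1 to 3 the 4 receptor chains summed to at most 1.08 TPM.

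The transcription factors were found in 1 to 9 cells each. Stat2, which acts with Irf9 in binding the ISRE, was above 0 in 6 cells and reached 45.9 TPM in VGT3+ cell 5. Irf9 was above 0 in 9 cells and reached 47.7 TPM in Sst+ cell 2. Irf1 stood at 16.3 TPM in Sst+ cell 3 and at 0 elsewhere, and Irf7 at 0.445 TPM in VGT3+ cell 5 and at 0 elsewhere. Stat2 and Irf9 exceeded 1 TPM in the same cell in Pv+ cell 3 and Sst+ cell 2. Irf9 and Irf7 overlap exons of Rnf31 and Phrf1. The sensors of double-stranded RNA were each above 0 in 1 cell: Ifih1 (MDA5) at 7.81 TPM in Pv+ cell 3 and Ddx58 (RIG-I) at 7.44 TPM in Pv+ cell 4.

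Ifi27 (ENSMUSG00000064215, chromosome 12, 103434211 to 103440239), a small membrane protein of mitochondria and the nuclear envelope, was the most evenly measured of the 14 interferon-induced effectors. It stood at 137, 657, 765, 590 and 121 TPM in the VGT3+ cells, at 79.9, 146, 190, 241 and 109 TPM in the Pv+ cells and at 237, 21.8, 0, 0 and 122 TPM in the Sst+ cells. All VGT3+ and Pv+ cells had it, and the highest 3 cells were VGT3+. Means were 454 ± 303, 153 ± 64.1 and 76.1 ± 103 TPM in VGT3+, Pv+ and Sst+ cells (SD, n = 5). VGT3+ cells lay 4.57 and Pv+ cells 3.29 above Sst+ cells on the log2 scale, where the SDs ran from 0.63 to 3.74. The ranges overlapped in each pair of types.

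Ifitm3 and Ifitm2, membrane proteins that restrict virus entry, were above 0 in some cells and listed at 0 in others. A 0 does not show that the transcript was absent from the cell. Ifitm3 stood at 0, 0, 472, 288 and 0 TPM in the VGT3+ cells, at 1728, 0, 300, 429 and 71.3 TPM in the Pv+ cells and at 0, 0, 0, 95.2 and 730 TPM in the Sst+ cells. It was thus found in 4 Pv+ cells and in 2 cells of each other type, at 71.3 TPM or more wherever it was found. Ifitm2 stood at 51.9, 29.3, 0, 0 and 0 TPM in the VGT3+ cells, at 40.4, 0, 17.1, 37.5 and 26.4 TPM in the Pv+ cells and at 0, 0, 136, 29.6 and 253 TPM in the Sst+ cells. The 2 genes were found together in 4 Pv+ cells and in Sst+ cells 4 and 5, and in no VGT3+ cell. VGT3+ minus Pv+ was -3.37 for Ifitm3 and -1.79 for Ifitm2 on the log2 scale, where SDs between cells reached 4.68. The 2 genes are close paralogs on chromosome 7 and may share reads.

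The Ifit genes, which encode proteins that bind viral RNA and lie next to each other on chromosome 19, were highest in Sst+ cells. Ifit2 (ENSMUSG00000045932, 34550694 to 34576419) stood at 3.60, 3.86, 191, 26.7 and 1.24 TPM in the Sst+ cells, at 0, 0, 5.91, 2.73 and 0 TPM in the Pv+ cells and at 0 in the VGT3+ cells except cell 2, at 0.0207 TPM. All 5 Sst+ cells lay above all 5 VGT3+ cells, and Sst+ and Pv+ cells overlapped. The lowest Sst+ value rested on an estimated 40 reads and the VGT3+ value on 1. Ifit3 (34583531 to 34588731) stood at 12.4, 0, 109, 47.0 and 141 TPM in the Sst+ cells, at 0 in the Pv+ cells except cell 4, at 1.21 TPM, and at 0 in the VGT3+ cells except cell 4, at 87.4 TPM. Ifit1 was above 0 in Sst+ cells 2 and 4 alone, at 19.8 and 10.0 TPM, and Sst+ cell 4 was the only cell with all 3 Ifit genes. The difference of Pv+ minus Sst+ cells was -2.67 for Ifit2 and -4.42 for Ifit3 on the log2 scale, with SDs between 0.51 and 2.92. Reads of Ifit3 may be shared with its near-identical neighbour Ifit3b.

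Rtp4 (ENSMUSG00000033355, chromosome 16, 23520291 to 23614222), a chaperone of G protein-coupled receptors, stood at 306, 0, 0, 142 and 162 TPM in the Sst+ cells. It stood at 95.2 TPM in Pv+ cell 1 and at 0 in the other Pv+ cells and in all VGT3+ cells. The 4 cells with Rtp4 had an estimated 1313 to 3776 reads on it, and Sst+ cells 2 and 3 were at 0 like the other types. Rtp4 and Ifit3 were found together in Sst+ cells 1, 4 and 5. Ly6c1, the only endothelial marker above 10 TPM, stood at 123, 309, 0, 70.1 and 87.3 TPM in the Sst+ cells and at 0 in all Pv+ cells, and its part in these results was not tested. Astrocyte marker sums ran from 188 to 1915 TPM in Sst+, 113 to 490 TPM in Pv+ and 221 to 3557 TPM in VGT3+ cells. Of the 7 astrocyte markers that could be counted, 3 were higher in Sst+ and 1 in VGT3+ cells by at least 1 log2 unit. Between Sst+ and Pv+ cells, 4 were higher in Sst+ and 1 in Pv+. Oligodendrocyte lineage sums ran from 59.1 to 1299 TPM in Sst+, 33.2 to 425 TPM in Pv+ and 5.88 to 611 TPM in VGT3+ cells. By the same measure, 2 of 9 oligodendrocyte lineage markers were higher in Sst+ and 3 in VGT3+ cells. Between Sst+ and Pv+ cells, 1 was higher in Sst+ and 3 in Pv+. Of all genes averaging 1 TPM or more, 24.7% were higher in Sst+ and 22.9% in VGT3+ by this measure. For Sst+ and Pv+ cells these shares were 23.2% and 22.9%. The part of astrocyte and oligodendrocyte markers in the Sst+ levels of Ifit2, Ifit3 and Rtp4 was not tested.

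Lgals3bp ran the other way. It stood at 17.0, 0, 7.82, 146 and 0 TPM in the VGT3+ cells, at 0.163, 17.6, 25.6, 9.72 and 0 TPM in the Pv+ cells and at 0 in the Sst+ cells except cell 4, at 1.80 TPM. The VGT3+ cells lay 2.60 above the Sst+ cells on the log2 scale, and 0.75 without the 3 cells highest in microglia markers, a setting added after the values were seen. It leaves out VGT3+ cells 1 and 4 and Pv+ cell 3, the highest in Lgals3bp of their types. Pv+ minus Sst+ was 2.22, and at least 1.67 in every setting. Of 16 microglia markers, 11 were at least 1 log2 unit higher in VGT3+ than in Sst+ cells. Between Pv+ and Sst+ cells, 13 were higher in Pv+ and 1 in Sst+. Either share was 22.9% over all genes for VGT3+ or Pv+ over Sst+ cells. The part of microglia transcripts in Lgals3bp was not tested.

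The remaining effectors reached at most 14.7 TPM. Rsad2 (viperin), an inhibitor of virus replication, was listed at 0 in all 15 cells, Isg15, a ubiquitin-like modifier, was at 0.409 TPM and Bst2 (tetherin) at 0.607 TPM, both in Pv+ cell 1 alone. Oasl2, of the oligoadenylate synthetase family, was above 0 in 1 cell, Usp18, which removes Isg15 from proteins, in 2, at 5.06 and 9.08 TPM, and Xaf1, a pro-apoptotic factor, in 3 Pv+ cells, with up to 14.7 TPM. Rsad2, Isg15 and Bst2 were thus at or near 0 while Ifi27, Ifitm3 and Rtp4 reached 765, 1728 and 306 TPM. Ifit2 and Ifit3 reached 191 and 141 TPM.

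**Figure D4:**
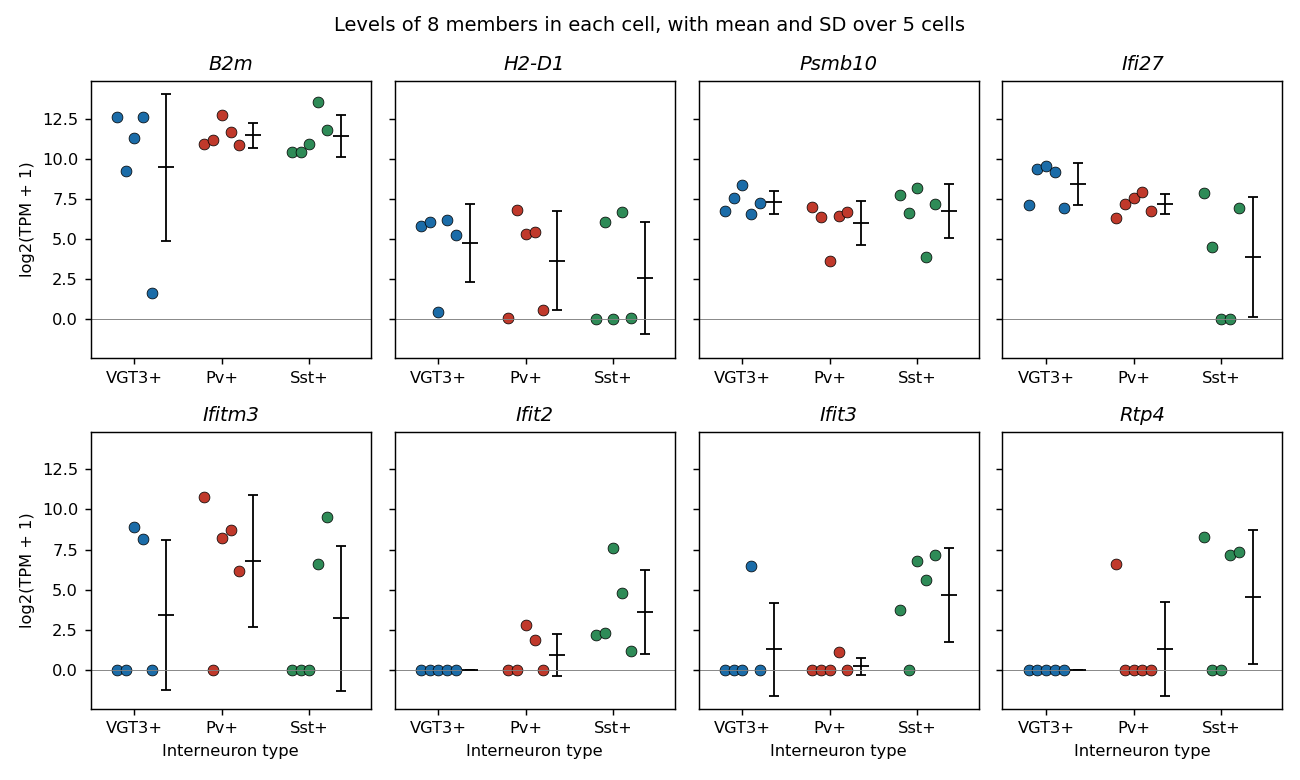
Levels of 8 members as log2(TPM + 1), with 1 point per cell in each type and the mean and SD over 5 cells in black. Ifit2, Ifit3 and Rtp4 are at or near 0 in most VGT3+ and Pv+ cells and above 0 in most Sst+ cells, and Ifi27 is above 0 in all VGT3+ and Pv+ cells.

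Differences between types were counted for the 23 members and the 12825 genes that averaged 1 TPM or more, as those with at least 1 log2 unit between means of log2(TPM + 1). Between VGT3+ and Pv+ cells, 5 members were higher in VGT3+ (H2-D1, Ifi27, Ifit3, Irf9 and Psmb10), or 21.7% beside 22.7% of all genes. Higher in Pv+ were 7 members (B2m, Ifitm2, Ifitm3, Ifnar2, Ifngr1, Rtp4 and Xaf1), or 30.4% beside 24.1%. The median difference over the members was -0.25 and that over all genes 0. These shares lay near the background.

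Between VGT3+ and Sst+ cells, 5 members were higher in VGT3+ (H2-D1, Ifi27, Ifngr2, Lgals3bp and Psmb8), or 21.7% beside 22.9% of all genes. Higher in Sst+ were 7 (B2m, Ifit1, Ifit2, Ifit3, Ifitm2, Ifngr1 and Rtp4), or 30.4% beside 24.7%. The median over the members was 0. Between Pv+ and Sst+ cells, 8 members were higher in Pv+ (H2-D1, Ifi27, Ifitm3, Ifngr2, Lgals3bp, Psmb8, Tapbp and Xaf1), or 34.8% beside 22.9%, and 5 were higher in Sst+ (Ifit1, Ifit2, Ifit3, Rtp4 and Stat2), or 21.7% beside 23.2%. The median was 0.55 beside 0 over all genes. Without Pv+ cell 3, the count higher in Pv+ was 5 and the median 0.13. The comparisons share cells: each type enters 2 of them.

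Few members, like few of all genes, separated the types completely. Of the 23 members that averaged 1 TPM or more, Ifit2 alone did for VGT3+ and Sst+ cells, where 1.51% of the 12825 genes did. For VGT3+ and Pv+ cells 0 of the 23 did, beside 4.66% of those genes, and for Pv+ and Sst+ cells 0, beside 5.07%. At such shares 23 members are too few for these counts to be read as above or below them. Of the 37 member differences of at least 1 log2 unit, 13 kept that size and their sign under all the other settings. The 37 were picked by size in these same cells, and the settings were run for members alone. No share over all genes therefore stands beside the 13. Of the 21 settings, 16 could change a difference that involves VGT3+ cells and 15 one between Pv+ and Sst+ cells, and the others touch only cells outside the pair. Those 13 were Ifi27 in VGT3+ and in Pv+ over Sst+, Ifit2, Ifit3 and Rtp4 in Sst+ over each other type, Ifitm3 in Pv+ over each other type, Ifitm2 in Pv+ over VGT3+, H2-D1 in VGT3+ over Sst+ and Lgals3bp in Pv+ over Sst+. The value nearest to 0 in any setting was -1.26 for Ifitm2 (VGT3+ minus Pv+) and 3.60 for Ifi27 (VGT3+ minus Sst+).

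**Figure D5:**
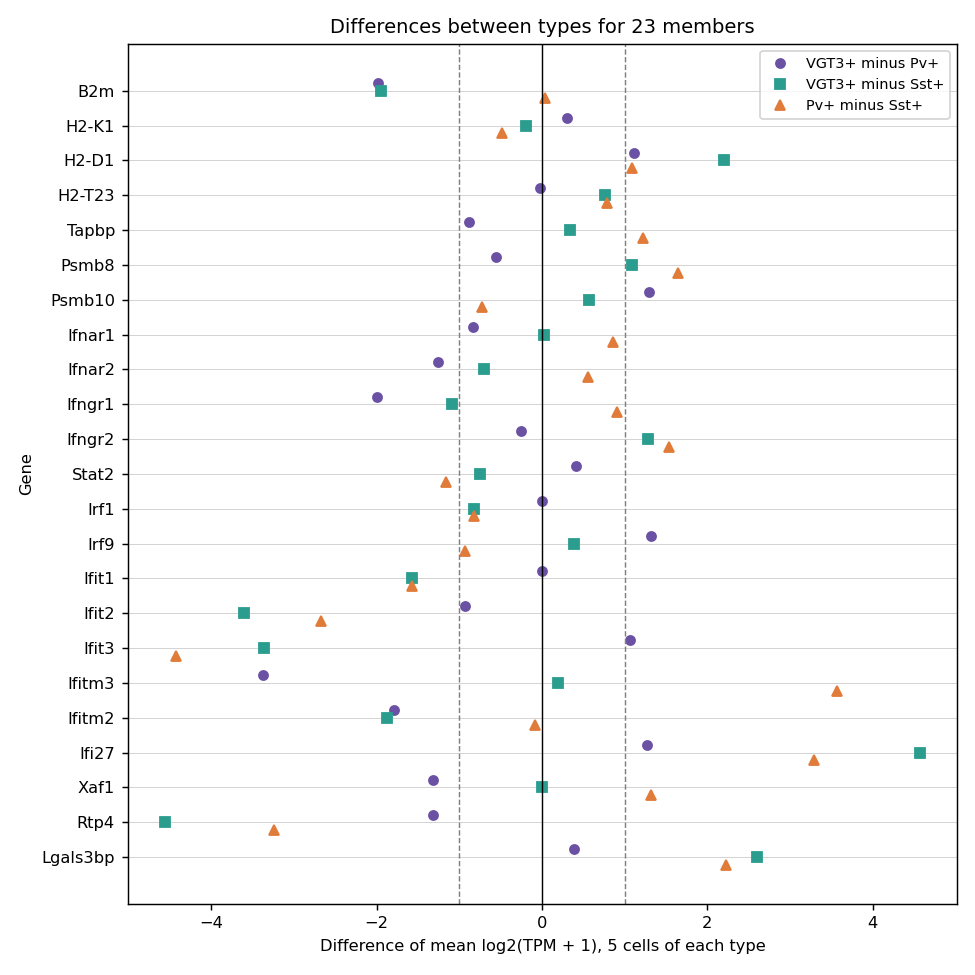
Difference of mean log2(TPM + 1) between types for the 23 members that averaged 1 TPM or more, with 1 symbol per comparison and dashed lines at 1 and -1. Rtp4, Ifit2 and Ifit3 lie farthest to the left in the comparisons with Sst+ cells, down to -4.55, and Ifi27 farthest to the right, up to 4.57.

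The wider pathway was read from 88 other genes, of which 87 were listed and 55 were above 0 in at least 1 cell. All 8 interferon genes examined, among them Ifnb1, Ifna4 and Ifng, were listed at 0 in all 15 cells. Of 16 signalling genes, 14 were above 0 in some cell. Jak1, a kinase bound to the receptors, was above 0 in all 15 cells, at 4.39 to 164 TPM, Tmem173 (STING, an adaptor of cytosolic DNA sensing) in 4 cells at up to 191 TPM, and Jak2 in 10 cells at up to 56.6 TPM. Of 31 other interferon-induced genes listed, 19 were above 0 in some cell, led by Ifi27l2a, a relative of Ifi27 that reached 926 TPM in Pv+ cell 1 and was above 0 in 3 cells, and by Adar, an RNA editing enzyme with 0.882 to 56.5 TPM in all 15 cells. Of the 34 of these genes that averaged 1 TPM or more, 9 were higher in VGT3+ and 11 in Pv+ cells between those types, or 26.5% and 32.4% beside 22.7% and 24.1% of all genes. The counts were 6 and 9 for VGT3+ and Sst+ cells, or 17.6% and 26.5% beside 22.9% and 24.7%, and 10 and 6 for Pv+ and Sst+ cells, or 29.4% and 17.6% beside 22.9% and 23.2%.

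Other antigen presentation genes were also uneven. Of 15 other class I genes, 8 were above 0 in some cell, and Cd1d1, which presents lipids, reached 205 TPM in VGT3+ cell 4. Psmb6 and Canx (calnexin, a chaperone of new heavy chains) were above 0 in all 15 cells, at 284 to 1816 and 48.9 to 541 TPM. Of 7 class II genes, 4 were above 0 in some cell, led by H2-DMa at up to 122 TPM. H2-DMb1 reached 25.0 TPM in Pv+ cell 3 and Cd74, the invariant chain, 12.4 TPM in VGT3+ cell 4.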

How the data were processed

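The deposited table holds TPM for 43629 genes in 15 cells, each column summing to 1000000; it has 5 VGT3+ columns, 1 more than the methods text of the study counts, and all were used as labelled. The authors de-multiplexed reads with bcl2fastq, aligned them to GRCm38 with HISAT2 2.1.0, counted them with HTSeq on the Ensembl annotation and computed TPM from gene lengths, with no scaling between cells. Members were matched by symbol and Ensembl identifier. In Python 3.11.15 (pandas 2.3.3, numpy 2.4.6), means and SDs of TPM over 5 cells and differences of mean log2(TPM + 1), which understate changes of low genes, were taken. Counts of differences used genes averaging 1 TPM or more and differences of 1 log2 unit or more. The code was tested on simulated data. Members averaging 10 TPM or more, or above 0 in all cells of a type, were given cell by cell. The members, gene lists and this rule were chosen with earlier results of these data known. Up to 3 genes per wider list were named by mean TPM; the proteasome counterparts, endothelial markers at 0 and named interferon genes were chosen after their values were seen. Reads per library were estimated, after the values were seen, from TPM steps and GENCODE M21 exon lengths: between 72.0% and 76.3% of values under 50 reads then lay within 0.01 of a whole number. An exact 0 means that no read was counted for the gene in that library, hence "listed at 0". It does not show that the cell lacked the transcript. Splice isoforms were not analysed here. Alternatives were library set G709 alone, each cell left out, a pseudocount of 0.1, median-of-ratios scaling, TPM without mitochondrial and the 10 highest genes, medians, other filters and detection limits, and the 3 cells highest in microglia markers left out.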

Additional observations from a re-analysis of the deposited data

Results flagged for a closer look

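In groups of 5 cells, a cell was singled out where its gap to the nearest other cell, on the log2(TPM + 1) scale, took up more than 0.71 of the whole range of its type (Dixon's ratio). Of 60 groups tested, 11 held such a cell. Chance gives about 1 in 20 for normally distributed values, but in 5 of the 11 the other 4 cells were at 0, which fixes the ratio at 1, so the 2 rates are not set against each other. Lone low cells were VGT3+ cell 3 for H2-D1, at 0.387 TPM, Pv+ cell 3 for Psmb10, at 11.2 TPM, and Pv+ cell 2 for Ifitm2, at 0 TPM. Lone high cells were VGT3+ cell 4 for Ifnar1, at 115 TPM, and for Ifit3, at 87.4 TPM, VGT3+ cell 3 for Ifngr1, at 64.0 TPM, and Pv+ cell 1 for Rtp4, at 95.2 TPM. Pv+ cell 4 for Ifit3, at 1.21 TPM, Sst+ cell 4 for Lgals3bp, at 1.80 TPM, and VGT3+ cell 2 for Ifit2, at 0.0207 TPM, were each the only cell of their type above 0. The summed transcription factors stood apart in Pv+ cell 3, at 14.6 TPM. VGT3+ cell 4 and Pv+ cell 3 were also among the 3 cells highest in summed microglia markers, at 21186 and 17834 TPM; the part of these markers in the values was not tested.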

How the results depend on the processing

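No paired analysis was possible because no animal or culture links cells across types and no test was computed. Counts of members higher in 1 type moved by over 1.5 times in these settings. In library set G709 alone, 8 members were higher in VGT3+ than in Pv+ and 9 than in Sst+ cells. With median-of-ratios scaling, 2 were higher in VGT3+ than Pv+. This scaling shifts the median of VGT3+ minus Pv+ from 0 to -0.15 over the 12825 genes. Over the 1709 genes above 0 in all cells, it shifts that median from 0.38 to -0.005. With medians over cells, 1 was higher in VGT3+ than Pv+, 4 in Sst+ than VGT3+ and 3 in Sst+ than Pv+. With a pseudocount of 0.1, 11 were higher in Pv+ than VGT3+. With a minimum mean of 10 TPM, 5 were higher in Pv+ and 3 in Sst+ between those types. Without the 3 cells highest in microglia markers, 3 were higher in VGT3+ than Sst+ and 5 in Pv+ than Sst+ cells.

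Leaving out each cell gave 2 to 5 members higher in VGT3+ and 6 to 10 in Pv+ between those types, 4 to 6 in VGT3+ and 6 to 9 in Sst+, and 5 to 10 in Pv+ and 4 to 8 in Sst+; the 2 came without VGT3+ cell 4, the 5 in Pv+ without Pv+ cell 3 and the 8 without Sst+ cell 1 or 4. Medians ranged from -0.73 to 0, from -0.48 to 0.0014 and from 0.13 to 0.76. Members above 0 per cell had medians of 10 to 11.5, 14.5 to 15.5 and 10 to 13, and the summed chains means of 2357 to 3917, 2352 to 3600 and 2066 to 4770 TPM. At a detection limit of 1 TPM the median was 8 in VGT3+ and 10 in Pv+ cells, and at 10 TPM 7 and 8. Signs turned for B2m with medians, to 0.14 (VGT3+ minus Pv+) and 0.41 (VGT3+ minus Sst+), for B2m to 0.013 (VGT3+ minus Sst+) without VGT3+ cell 5, and for Ifit3 in VGT3+ minus Pv+ to -0.23 without VGT3+ cell 4 and -0.29 without the 3 microglia-rich cells. With each cell left out, these differences ranged from -2.72 to 0.013 for B2m (VGT3+ minus Sst+) and from -0.23 to 1.39 for Ifit3 (VGT3+ minus Pv+). The causes were not tested.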
